A study of Homo sapiens with 16 samples.

Results

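HES1, HES4 and HEY1, the inhibitors of DNA binding ID1, ID2, ID3 and ID4, and BHLHE40 and BHLHE41 are transcriptional repressors that work through the basic helix-loop-helix (bHLH) fold. These 9 genes were chosen by name, as members of 3 families, from the 28374 genes of the deposited count table, and all 9 passed the filter on low counts. The cells were CCD-1070Sk, fibroblasts grown from normal human skin, and they were starved of serum before treatment. The groups were untreated cells (control, 3 libraries used), cells given epidermal growth factor for 1 h at 30 ng/ml (EGF, 3), cells given the phorbol ester TPA for 1 h at 100 nM (TPA, 2), and the same conditions with H89, namely H89 alone (3), EGF+H89 (2 libraries) and TPA+H89 (2 libraries). H89 was given at 10 µM for 30 min before the mitogen. The control and H89 groups are both labelled 0 h, so in every comparison of a mitogen group with control or with H89 alone an hour of further culture cannot be told apart from the mitogen. TPA activates protein kinase C. H89 inhibits the mitogen- and stress-activated kinases MSK1 and MSK2 as well as protein kinase A, and it is not specific to either. All groups come from 1 cell line, and the labels do not say whether the libraries of a group were separate cultures, so p-values measure the spread between libraries, which may be technical.

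HES and HEY proteins bind DNA as dimers and are best known as targets of Notch, and HES proteins recruit TLE corepressors. HES1 also binds and represses its own gene, and its transcript is short-lived and can pulse. ID proteins have the helix-loop-helix but no basic region. They pair with E proteins such as TCF3 and keep them off DNA, and in many cells they are direct targets of BMP signalling through SMAD proteins. BHLHE40 and BHLHE41, also called DEC1 and DEC2, bind E-boxes and oppose CLOCK and ARNTL in the circadian oscillator. Several members of the 3 families are also known as early response genes.

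The start regions of HES1, ID1, ID3 and BHLHE40, each called in at least 1 fit below, are printed here. That of BHLHE41, 1 of the members not called, is printed as well. The known target sites of these repressors differ between the printed regions. The region of ID4, which was also called, is not printed. The sequences are RefSeq windows of GRCh38.p14, from 250 bases before to 50 bases after the annotated gene start, and 8 of the 9 genes had one. HEY1 had none. The HES1 window was chr3:194135898-194136197 on the plus strand. The ID1 window was chr20:31605039-31605338 on the plus strand. The ID3 window was chr1:23559452-23559751 on the minus strand. The BHLHE40 window was chr3:4979187-4979486 on the plus strand. The BHLHE41 window was chr12:26124988-26125287 on the minus strand. Capitals mark matches, on either strand, to the N-box CACNAG bound by HES proteins, the E-box CACGTG bound by BHLHE40, the RBPJ core TGGGAA through which Notch acts, and the core TGACG of the cAMP response element.
HES1: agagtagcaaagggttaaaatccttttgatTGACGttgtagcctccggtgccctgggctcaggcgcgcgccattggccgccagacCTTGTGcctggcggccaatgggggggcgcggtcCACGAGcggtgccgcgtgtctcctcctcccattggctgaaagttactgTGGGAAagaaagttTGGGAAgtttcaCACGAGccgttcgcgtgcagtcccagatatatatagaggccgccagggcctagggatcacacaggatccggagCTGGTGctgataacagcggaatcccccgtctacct
ID1: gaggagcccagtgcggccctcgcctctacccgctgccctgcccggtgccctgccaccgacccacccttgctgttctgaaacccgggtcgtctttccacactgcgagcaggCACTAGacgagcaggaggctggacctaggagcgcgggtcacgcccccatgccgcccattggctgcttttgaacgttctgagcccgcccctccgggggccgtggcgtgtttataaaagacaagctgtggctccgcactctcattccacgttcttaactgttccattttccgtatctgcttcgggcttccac
ID3: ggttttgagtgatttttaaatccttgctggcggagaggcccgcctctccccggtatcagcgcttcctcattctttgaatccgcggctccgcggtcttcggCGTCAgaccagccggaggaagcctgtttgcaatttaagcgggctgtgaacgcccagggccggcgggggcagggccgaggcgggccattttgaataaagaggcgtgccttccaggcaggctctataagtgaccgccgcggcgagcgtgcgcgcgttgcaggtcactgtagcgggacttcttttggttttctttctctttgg
BHLHE40: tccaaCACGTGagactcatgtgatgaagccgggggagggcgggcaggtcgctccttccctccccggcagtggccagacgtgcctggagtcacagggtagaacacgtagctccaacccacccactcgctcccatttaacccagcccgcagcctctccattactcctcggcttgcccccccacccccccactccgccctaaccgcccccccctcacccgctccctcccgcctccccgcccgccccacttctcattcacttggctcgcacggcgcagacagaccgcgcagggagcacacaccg
BHLHE41: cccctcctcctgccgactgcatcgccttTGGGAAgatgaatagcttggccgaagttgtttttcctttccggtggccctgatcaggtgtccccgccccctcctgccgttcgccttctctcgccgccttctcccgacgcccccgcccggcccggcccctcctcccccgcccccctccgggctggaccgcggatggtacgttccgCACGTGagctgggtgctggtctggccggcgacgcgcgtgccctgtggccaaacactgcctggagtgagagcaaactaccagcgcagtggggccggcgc
HES1 held 4 N-box matches, 2 RBPJ cores and 1 cAMP response element core in its 300 bases. ID1 held 1 N-box match, ID3 held 1 cAMP response element core, and HES4 held 1 RBPJ core. An E-box was present once each in BHLHE40 and BHLHE41, and in no other of the 8 windows. BHLHE41 also held 1 RBPJ core. Among all 34943 windows of the same length, 38.0% held an N-box match, 7.23% the E-box, 24.0% the RBPJ core and 24.5% the cAMP response element core. Matches of different motifs did not overlap each other. The GC-rich SMAD element GGCGCC, found in 19.2% of all windows, and the CArG box bound by serum response factor, found in 1.3%, had no match in the 8 windows. These matches are letters in a short window and show neither binding nor regulation.

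The 15 libraries held 7527026 to 130075914 counts each, and a level is given as CPM, counts scaled by TMM to a common library size. The libraries fell into 3 sets by features of the counts that are not the genes studied here. Set A was control 1 and EGF 1, which had more genes at a count of 1 than at 2. Set B was TPA 1, TPA+H89 1, EGF 2, EGF+H89 1, H89 1 and control 2, in which the ribosomal RNA genes RNR1 and RNR2 took 11.7% to 30.4% of counts. Set C was the other 7 libraries. By the sample numbers in the labels, all TPA and TPA+H89 libraries and H89 3 come after every other library used. The only control among those later numbers was control 4, whose counts equal those of control 3. In comparisons of TPA groups with control or with EGF groups, the mitogen cannot be told apart from this sample order. For TPA+H89 against H89 this holds in part, as H89 3 is a later sample. The labels do not say whether the order marks a separate run. TPA 2, the deepest library, stood apart, with 124 genes at a count of 1 against 425 to 1185 in the others, and the members' differences from the TPA group are given with and without it. Fibroblast markers were counted at 12 of 12 genes in every library, at a summed 32556 to 66094 CPM. Summed endothelial markers stayed at 2.28 to 8.01 CPM. Summed neural markers were 37.1 to 53.0 CPM in controls and 67.3 and 234 CPM in TPA, of which TUBB3, a tubulin also made by fibroblasts, gave 67.0 and 232. Keratinocyte markers reached 48.4 CPM in TPA 2, of which KRT10 gave 47.7, against at most 11.3 CPM in controls. Whether these bear on the TPA values below was not tested. In bulk RNA, a change in the number of cells that express a gene and a change per cell cannot be told apart.

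HES1 was the member with the widest range. In CPM it stood at 2.19, 0.120 and 1.72 in the controls, at 4.71, 7.33 and 33.1 after EGF, and at 42.4 and 136 after TPA. All mitogen libraries lay above all controls. With H89 alone it stood at 0.235, 0.253 and 1.03 CPM, within the range of the controls. With H89 followed by EGF it reached 39.8 and 65.0 CPM, above every EGF library, and with H89 followed by TPA 65.6 and 134 CPM. The lowest level, in control 2, rested on 2 counts, so ratios to it are wide. Within set B the ratio of HES1 to control 2 was 61.1 in EGF 2 (95% interval 16.6 to 509) and 353.5 in TPA 1 (97.7 to 2922), and these intervals cover counting error only.

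HES4 and HEY1, the other members of the HES and HEY group, passed the test in no comparison. HES4, a human paralog of HES1 without a mouse counterpart, stood at 1.39, 6.06 and 5.85 CPM in the controls, at 5.02, 6.02 and 12.3 after EGF, and at 6.38 and 31.3 after TPA. TPA 2 was the highest library and control 1 the lowest. With H89 it stood at 5.68, 5.15 and 10.99 CPM, with EGF+H89 at 6.15 and 12.9, and with TPA+H89 at 4.56 and 7.04. HEY1, a Notch target of vessels and heart, was near the limit of detection at 0.240 to 0.543 CPM in controls, 4 to 25 counts. Its highest level was 1.82 CPM in TPA 2, while TPA 1 at 0.465 CPM lay inside the range of the controls. EGF gave 0.491, 0.374 and 0.623 CPM and H89 alone 0.548, 0.206 and 0.282. EGF+H89 gave 0.769 and 0.594 CPM and TPA+H89 0.911 and 1.18, all 4 above every control and every H89 library. These levels rested on 17, 27, 5 and 92 counts. Lying above every H89 library held for 10.7% of genes in EGF+H89 and 9.92% in TPA+H89.

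ID1 stood at 5.23, 6.66 and 12.5 CPM in the controls and at 8.27, 29.4 and 113 after EGF. TPA gave 30.3 and 617 CPM, so the pair of TPA libraries differed from each other by more than EGF 3 did from the highest control. H89 alone gave 4.74, 3.91 and 7.51 CPM. EGF+H89 gave 116 and 178 CPM, both above every EGF library, and TPA+H89 gave 63.0 and 142 CPM, between the TPA values. ID3 followed a like course. It stood at 7.75, 16.9 and 21.3 CPM in the controls, 15.2, 31.7 and 59.8 after EGF, and 89.8 and 776 after TPA. H89 gave 11.7, 10.4 and 15.2 CPM, EGF+H89 69.9 and 105, and TPA+H89 40.3 and 174.

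ID2 had the narrowest range of the 9 genes. It stood at 47.3, 67.4 and 46.3 CPM in controls, at 51.8, 78.5 and 83.4 after EGF, and at 100 and 69.3 after TPA. Its full range over the 15 libraries was 3.50-fold, against 158-fold for ID1 and 100-fold for ID3. EGF+H89 gave 123 and 119 CPM, above all EGF and all H89 libraries (65.8, 53.0 and 80.6 CPM), while TPA+H89 spread from 60.5 to 162 CPM. ID4, known from neural development, was low throughout. Its levels were 0.608, 1.08 and 1.195 CPM in controls, 2.70, 2.61 and 3.28 after EGF, and 4.09 and 12.9 after TPA, with all mitogen libraries above all controls. H89 gave 1.17, 0.665 and 2.08 CPM, EGF+H89 4.07 and 3.80, and TPA+H89 7.11 and 5.07.

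BHLHE40 lay above the controls in every mitogen library. Its controls stood at 22.0, 11.5 and 19.5 CPM. EGF gave 29.6, 102 and 180 CPM and TPA 256 and 367 CPM, none of them overlapping the controls. H89 alone gave 12.8, 14.2 and 21.0 CPM, EGF+H89 207 and 257, and TPA+H89 176 and 410. Its paralog BHLHE41 passed the test in no comparison. BHLHE41 stood at 3.26, 4.68 and 6.57 CPM in controls, 1.63, 6.26 and 8.17 after EGF and 5.24 and 21.3 after TPA, with TPA 2 the highest library and EGF 1 the lowest. H89 gave 4.58, 7.43 and 2.73 CPM, EGF+H89 6.87 and 8.62, and TPA+H89 4.01 and 10.9. The antisense gene BHLHE40-AS1 had 2 to 99 counts in a library, against 192 to 44439 for BHLHE40. ID2-AS1, antisense to ID2, had 1 to 167 counts and SSPN, which neighbours BHLHE41, 180 to 2959, and the sources used here do not say whether strand was used in counting, so reads shared between such pairs cannot be told apart.

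**Figure D1:**
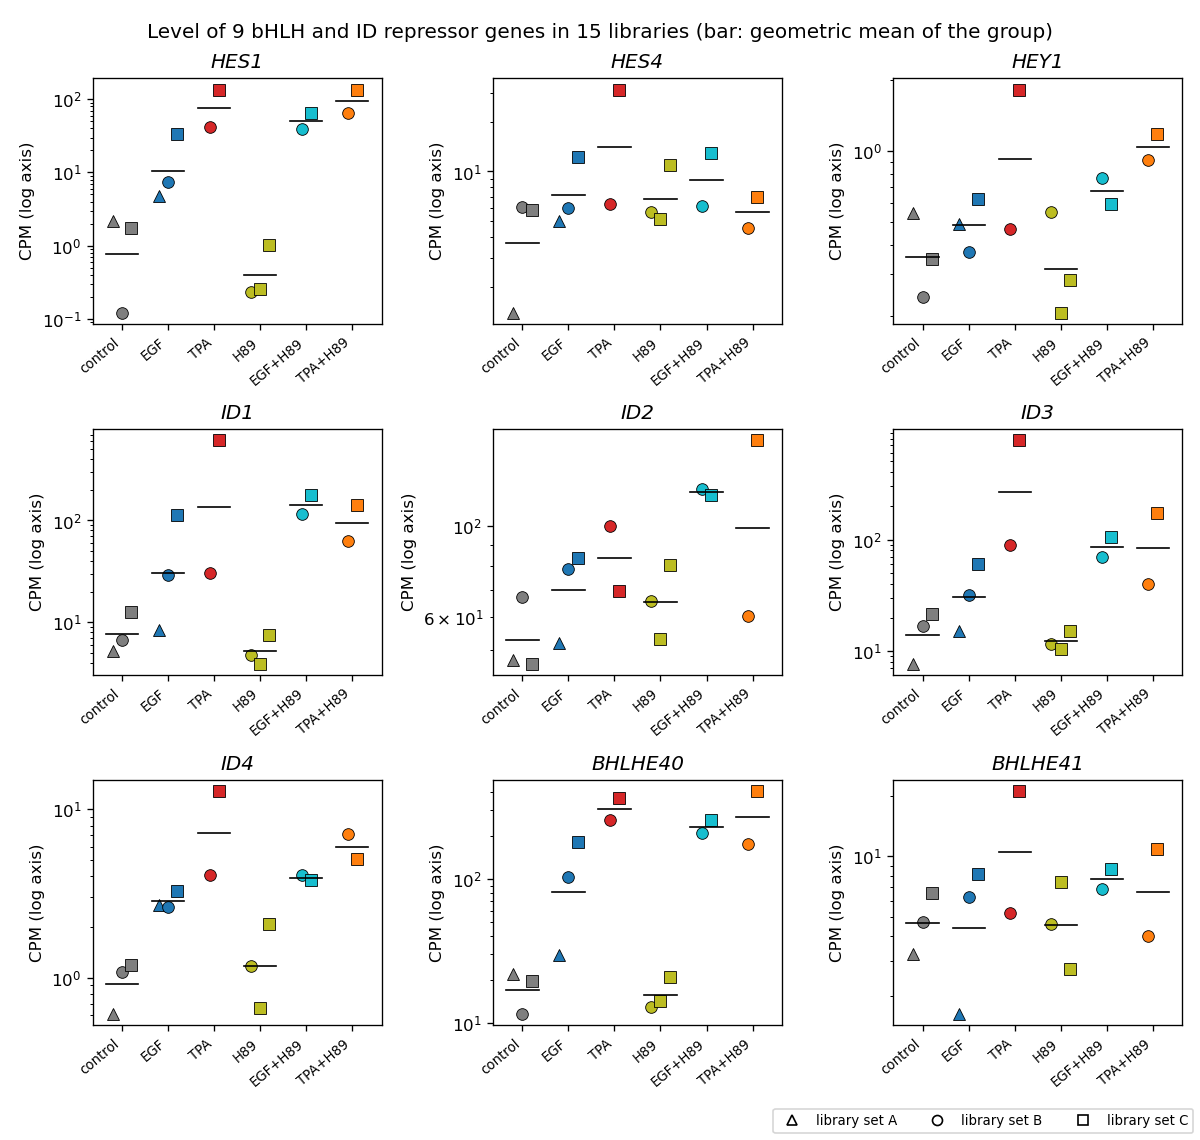
Level of each of the 9 genes in CPM (log axis, 1 panel per gene) in every library of the 6 groups. Marker shape gives the library set and the bar the geometric mean of the group. HES1 and BHLHE40 lie above all controls in every mitogen library, with or without H89, while ID2 spans 3.50-fold over all libraries.

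The first question was which members a mitogen moved at 1 h. In edgeR's quasi-likelihood test over 18575 genes with Benjamini-Hochberg adjustment, 0 of 9 members passed 0.05 for EGF against control. EdgeR called 0.0269% of genes higher there. In that test 4 members and 1.63% of genes had an unadjusted p under 0.05. DESeq2 called 2 members, HES1 and BHLHE40, where it called 56 of 18575 genes higher. The edgeR log2 fold changes were 3.42 ± 0.94 (SE) for HES1 (adjusted p = 0.862), 2.56 ± 0.55 for BHLHE40 (adjusted p = 0.293), 2.62 ± 0.98 for ID1 and 1.58 ± 0.49 for ID4. The remaining 5 members lay between 0.15 for BHLHE41 and 1.22 for ID3. All 9 estimates were positive (with the library set as a term BHLHE41 had -0.07), and their median of 1.22 stood beside a median of 0.02 over all genes tested. With the library set as a further term, BHLHE40 passed with 2.32 ± 0.45 (adjusted p = 0.0458), where 0.221% of genes were called higher, and HES1 had 3.21 ± 0.64 (adjusted p = 0.0567). For 3 members, HES1, ID4 and BHLHE40, all EGF libraries lay above all controls, which held for 2.97% of genes.

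EGF 1 was the lowest EGF library for 7 of 9 members, all but HEY1 and ID4. Within set A, EGF 1 exceeded control 1 by 0.43 for BHLHE40, 1.09 for HES1 and 0.66 for ID1, as log2 differences of CPM. In set B the same differences were 3.15, 5.50 and 2.13, and in set C 3.21, 4.23 and 3.17. ID4 went the other way, with 2.07 in set A and 1.24 and 1.43 in sets B and C. Without EGF 1, 1 member was called, BHLHE40, at 2.98 ± 0.42 (adjusted p = 0.0335).

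After TPA, 4 of 9 members rose and 0 fell, where 0.388% of all genes were called higher. HES1 rose by 5.99 ± 1.08 on the log2 scale (adjusted p = 0.0335, edgeR), ID3 by 4.82 ± 0.87 (adjusted p = 0.0335), BHLHE40 by 4.14 ± 0.61 (adjusted p = 0.0119) and ID4 by 3.15 ± 0.54 (adjusted p = 0.0247). ID1 had a larger estimate than ID3, 5.31 ± 1.14, but a wider error and an adjusted p of 0.0756. HES4 had 2.10 ± 0.71, HEY1 1.58 ± 0.64, BHLHE41 1.46 ± 0.70 and ID2 0.66 ± 0.38, none past the threshold. The median of the 9 was 3.15, beside -0.02 over all genes. With the library set as a term, ID1 rose as well, by 4.18 ± 0.77 (adjusted p = 0.0109), which made 5 members where 0.948% of genes were called higher. In 7 of 9 members both TPA libraries lay above all controls, against 9.6% of genes.

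These TPA calls rested on few libraries. Leaving out TPA 2, control 2 or control 3 left 0 of the 9 past the threshold, and leaving out control 1, EGF+H89 1 or EGF+H89 2 left 1. Without TPA 2 the log2 fold changes were 4.92 for HES1, 3.86 for BHLHE40, 2.55 for ID3, 2.10 for ID4, 1.90 for ID1, 0.91 for ID2, 0.53 for HES4, 0.28 for HEY1 and 0.12 for BHLHE41. Their median was then 1.90, beside -0.19 over all genes. That fit set TPA 1 of set B against controls of sets A, B and C, so library set was mixed with TPA. Within set B, TPA 1 exceeded control 2 by log2 differences of 8.03 for HES1, 4.47 for BHLHE40, 2.41 for ID3 and 2.18 for ID1. Within set C, TPA 2 exceeded control 3 by 6.27, 4.23, 5.18 and 5.62 in the same order.

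**Figure D2:**
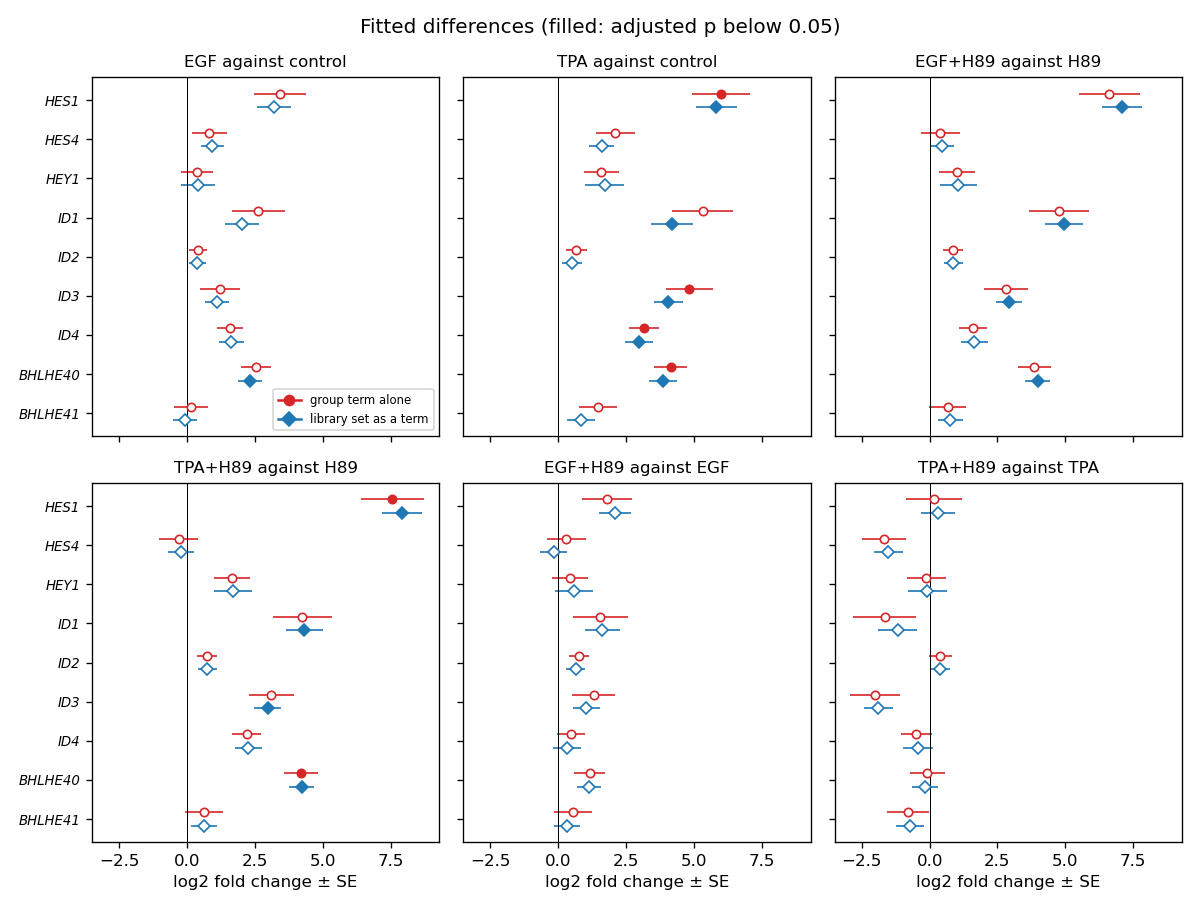
Log2 fold change ± SE of each gene (rows) in 6 comparisons (panels). Circles are from the edgeR fit with groups alone and diamonds from the fit with the library set as a further term, and filled symbols passed an adjusted p of 0.05. Members called after TPA lie at 2.98 or more, and no symbol is filled in the lower middle and right panels, which compare mitogen with and without H89.

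TPA was then compared with EGF. In TPA against EGF all 9 estimates were positive, and edgeR called 0 where no gene was called higher (0%). In that test 5 members and 13.4% of genes had an unadjusted p under 0.05. DESeq2 called 1 member, where it called 165 of 18575 genes higher. ID3 had the largest estimate, 3.60 ± 0.83 (adjusted p = 0.301), followed by ID1 with 2.69 ± 1.03, HES1 with 2.56 ± 0.94, BHLHE40 with 1.58 ± 0.57 and ID4 with 1.57 ± 0.52. With the library set as a term, ID3 was called, at 2.96 ± 0.52 (adjusted p = 0.0248), where 0.205% of genes were called higher. Within set B, TPA 1 exceeded EGF 2 by 1.50 for ID3 and 0.05 for ID1, while within set C, TPA 2 exceeded EGF 3 by 3.70 and 2.45. Without TPA 2, TPA 1 of set B was set against EGF libraries of sets A, B and C, so library set was mixed with mitogen. The estimates were then 1.33 for ID3, -0.73 for ID1, 1.49 for HES1, 1.30 for BHLHE40 and 0.51 for ID4. Those of HES4, HEY1 and BHLHE41 were also negative, at -0.29, -0.10 and -0.03. That left 5 of 9 positive with a median of 0.50, in place of 1.57 with both TPA libraries. Within set B, TPA 1 differed from EGF 2 by 2.53 for HES1, 0.08 for HES4, 0.29 for HEY1 and -0.26 for BHLHE41. The comparisons of EGF and of TPA with control share their control libraries, so no correlation between them is given.

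No member passed the test with H89 alone. In H89 against control edgeR called 0 of 9, 0 had an unadjusted p under 0.05, DESeq2 called 0, and 0% of genes were called higher. With the library set as a term 1 member, HES1 (-1.79 ± 0.74), had an unadjusted p under 0.05, against 1.87% of genes, and 0 were called. The estimates ran from -1.40 ± 0.92 for HES1 to 0.72 ± 0.65 for HES4. Those of HES1, ID1, ID3, BHLHE40 and HEY1 were negative. The HES1 estimate rested on 2 to 101 counts a library, and its log2 difference was 0.77 within set B and -1.64 within set C.

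With H89 before EGF, most members stood above their EGF levels, though no difference passed the test. All 9 estimates of EGF+H89 against EGF were positive (with the library set as a term HES4 had -0.18), with 1.80 ± 0.93 for HES1, 1.55 ± 1.01 for ID1, 1.30 ± 0.79 for ID3, 1.16 ± 0.57 for BHLHE40 and 0.76 ± 0.38 for ID2. EdgeR called 0 members and 0% of genes higher, and DESeq2 called 0. With groups alone 0 members had an unadjusted p under 0.05 in edgeR and 1 in DESeq2. With the library set as a term 3 members had one, HES1, ID1 and BHLHE40, against 1.11% of genes, and 0 were called. For 6 members, HES1, ID1, ID2, ID3, ID4 and BHLHE40, both EGF+H89 libraries lay above all 3 EGF libraries, which held for 7.6% of genes. Without the low library EGF 1, the log2 difference of EGF+H89 1 over EGF 2 was 2.43 for HES1, 1.97 for ID1, 1.14 for ID3 and 1.02 for BHLHE40, and that of EGF+H89 2 over EGF 3 was 0.97, 0.66, 0.81 and 0.51.

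With H89 before TPA, the direction of most members in the fit with groups alone depended on TPA 2. TPA+H89 against TPA gave -2.01 ± 0.91 for ID3, -1.69 ± 0.81 for HES4 and -1.66 ± 1.15 for ID1, while HES1 had 0.17 ± 1.03 and BHLHE40 -0.09 ± 0.64. EdgeR called 0 of 9, DESeq2 called 0, and 0% of genes were called higher. In edgeR 1 member and 7.00% of genes had an unadjusted p under 0.05. With the library set as a term these were 2 members and 13.4% of genes. ID3 was lower with H89 in both sets, by log2 differences of -1.16 in set B and -2.16 in set C. ID1 differed in sign, with 1.05 in set B and -2.12 in set C. HES4 was lower in both, with -0.48 and -2.15. In set B, which does not hold TPA 2, ID2 had -0.73, BHLHE40 -0.54 and BHLHE41 -0.38. HES1 had 0.63 there, ID4 0.79 and HEY1 0.91. Without TPA 2, TPA 1 of set B was set against TPA+H89 libraries of sets B and C, so library set was mixed with H89. The estimates then turned to 0.26 for ID3 and 1.76 for ID1. They came to -0.12 for HES4, 1.24 for HES1 and 0.20 for BHLHE40. Then 8 of 9 were positive with a median of 0.54, against 2 of 9 and -0.49 with both TPA libraries.

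The response to each mitogen in the presence of H89 was tested against H89 alone. With EGF+H89 the estimates were 6.62 ± 1.12 for HES1 (adjusted p = 0.119), 4.77 ± 1.11 for ID1 (adjusted p = 0.466), 3.86 ± 0.61 for BHLHE40 (adjusted p = 0.0715) and 2.82 ± 0.81 for ID3. EdgeR called 0 of 9 where 0.0269% of genes were called higher. In that test 6 members and 1.53% of genes had an unadjusted p under 0.05. DESeq2 called 3 members, where it called 50 of 18575 genes higher. With the library set as a term, HES1, ID1, ID3 and BHLHE40 all rose, at 7.08 ± 0.73, 4.96 ± 0.70, 2.93 ± 0.49 and 3.99 ± 0.46, where 0.269% of genes were called higher. With TPA+H89, HES1 rose by 7.56 ± 1.16 (adjusted p = 0.0314) and BHLHE40 by 4.19 ± 0.62 (adjusted p = 0.0257), 2 of 9 members where 0.0969% of genes were called higher. The library set term added ID1 with 4.31 ± 0.68 and ID3 with 2.97 ± 0.49, 4 members where 0.431% of genes were called higher. Leaving out any H89 library, either EGF+H89 library or TPA+H89 2 left 0 of the calls made with groups alone.

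The tests of the H89 effect on the response itself gave no call. For H89 by EGF, edgeR called 0 of 9 and 0% of genes higher, and DESeq2 called 0. With groups alone, 1 member, HES1 (3.20 ± 1.31), had an unadjusted p under 0.05 in edgeR, against 0.258% of genes. With the library set as a term 4 members had one, HES1, ID1, ID3 and BHLHE40, against 0.775% of genes, and 0 were called. For H89 by TPA, both tools called 0 and 0% of genes were called higher. HES4 was the 1 member under 0.05 (-2.41 ± 1.04), against 4.78% of genes, and had -0.84 ± 1.00 without TPA 2. With the library set as a term HES1 (2.11 ± 0.98) and HES4 (-1.81 ± 0.68) were under 0.05, against 7.80% of genes. The difference between the H89 effect under EGF and that under TPA, a comparison added after the counts were seen, was positive for all 9 members with a median of 1.34, with 0 called by either tool and 0% of genes called higher. ID3 had 3.31 ± 1.20 there, the 1 member with an unadjusted p under 0.05 in edgeR with groups alone, against 2.98% of genes. With the library set as a term ID1 and ID3 had one, against 6.7% of genes. The differences of ID3 were 2.30 within set B and 2.97 within set C, while ID4 had -0.16 within set B and ID2 had -0.71 within set C. Without TPA 2 the only TPA library was TPA 1 of set B, so library set was mixed with treatment. ID3 then had 1.04 for this difference, and 5 of 9 members were positive with a median of 0.41. HEY1 was then at -0.75, ID1 at -0.21, ID4 at -0.11 and BHLHE41 at -0.01. TPA+H89 against EGF+H89 gave 0 calls in either tool, 0 members under 0.05, and 0% of genes called higher, with estimates from -0.70 for HES4 to 0.93 for HES1. Over all 6 groups together, the F-test of edgeR called HES1 (adjusted p = 0.0285) and BHLHE40 (adjusted p = 0.0149), where 0.183% of genes were called. With the library set as a term it also called ID1, ID3 and ID4, where 1.01% of genes were called.

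**Figure D3:**
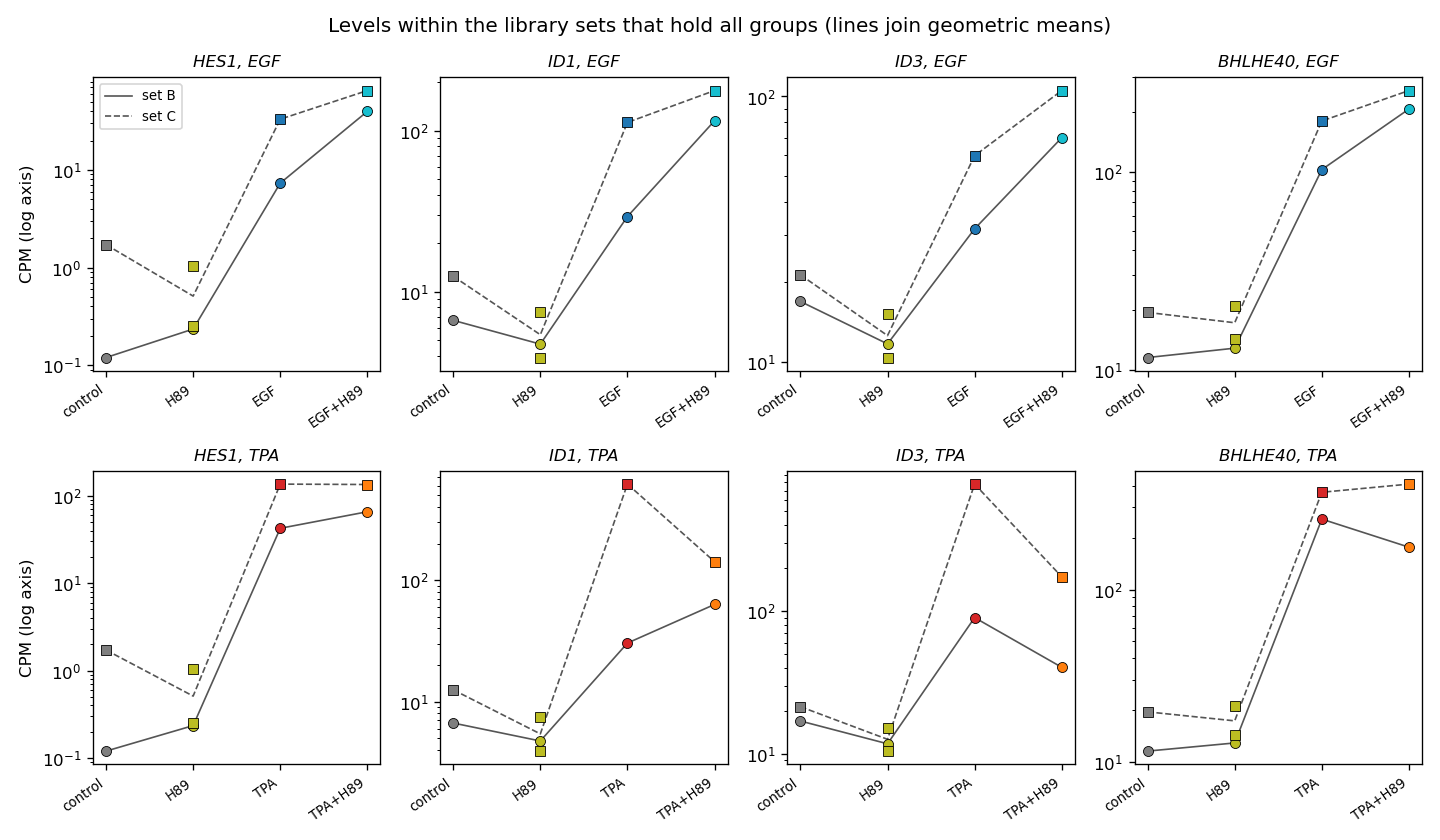
Levels in CPM (log axis) of HES1, ID1, ID3 and BHLHE40 (columns) for EGF (top) and TPA (bottom), within library sets B (circles, solid line) and C (squares, dashed line). Lines join geometric means of control, H89, mitogen and mitogen with H89. In the top row every EGF+H89 point is above the EGF point of its set. In the bottom row ID3 is lower in TPA+H89 than in TPA in both sets, and ID1 in set C alone.

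Levels of different genes are compared only per kilobase of transcript. In the controls ID2 led with 39.4 ± 8.74 CPM per kb (SD, n = 3), above all others. ID3 at 12.3 ± 5.53, ID1 at 6.59 ± 3.12, BHLHE40 at 5.08 ± 1.57 and HES4 at 4.26 ± 2.54 followed, and the span of mean ± SD of each overlapped that of its neighbour in this order. The same was true of BHLHE41 at 1.26 ± 0.434, HES1 at 0.852 ± 0.688 and ID4 at 0.410 ± 0.133, whose spans lay below that of HES4. HEY1 at 0.164 ± 0.0669 was lowest. After EGF the order was ID2 (52.3 ± 12.5), ID1 (40.7 ± 44.8), BHLHE40 (30.0 ± 21.7) and ID3 (28.5 ± 18.03), with overlapping spans. After TPA the highest mean was that of ID3, 346 ± 388 (SD, n = 2), then ID1 at 263 ± 337, BHLHE40 at 89.8 ± 22.6, ID2 at 62.3 ± 16.1 and HES1 at 56.5 ± 41.8. That order rested on TPA 2, with 620 for ID3 and 501 for ID1. In TPA 1 alone BHLHE40 stood at 73.8, ID2 at 73.7, ID3 at 71.8, HES1 at 26.9 and ID1 at 24.6 CPM per kb. In TPA+H89 the first 4 genes stood close together, with ID3 at 85.5 ± 75.4, BHLHE40 at 84.3 ± 47.5, ID1 at 83.1 ± 45.2 and ID2 at 81.6 ± 52.6 CPM per kb.

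The make-up of each family differed between libraries with and without a mitogen, with overlap for EGF alone. ID2 was 55.1% to 76.4% of the summed CPM per kb of the ID genes in controls and 75.5% to 77.9% with H89. It fell to 37.3% and 27.5% of that sum in EGF+H89 and to 34.0% and 31.7% in TPA+H89, with ID1 and ID3 making up nearly all of the rest. In TPA 1 and TPA 2 the ID2 share was 42.9% and 4.32%. In EGF it was 65.5%, 53.4% and 30.3%, so EGF 1 was inside the range of the controls. HES1 was 1.27% to 46.9% of the HES and HEY sum in controls, 2.55% to 5.76% with H89, 37.2%, 43.8% and 63.4% with EGF, 80.9% and 73.6% with TPA, 80.1% and 76.5% with EGF+H89, and 89.7% and 92.1% with TPA+H89. Of the EGF values, 2 of 3 lay inside the range of the controls. HES4 took 93.2% to 95.2% of that sum in the 3 H89 libraries, 45.1%, 97.0% and 81.9% in the controls and 60.2%, 54.6% and 35.8% with EGF. BHLHE40 was 73.1% to 88.2% of the BHLHE40 and BHLHE41 sum in controls, 67.9% to 89.5% with H89 and 94.8% to 98.2% in the libraries with a mitogen. These shares are descriptions without a test.

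**Figure D4:**
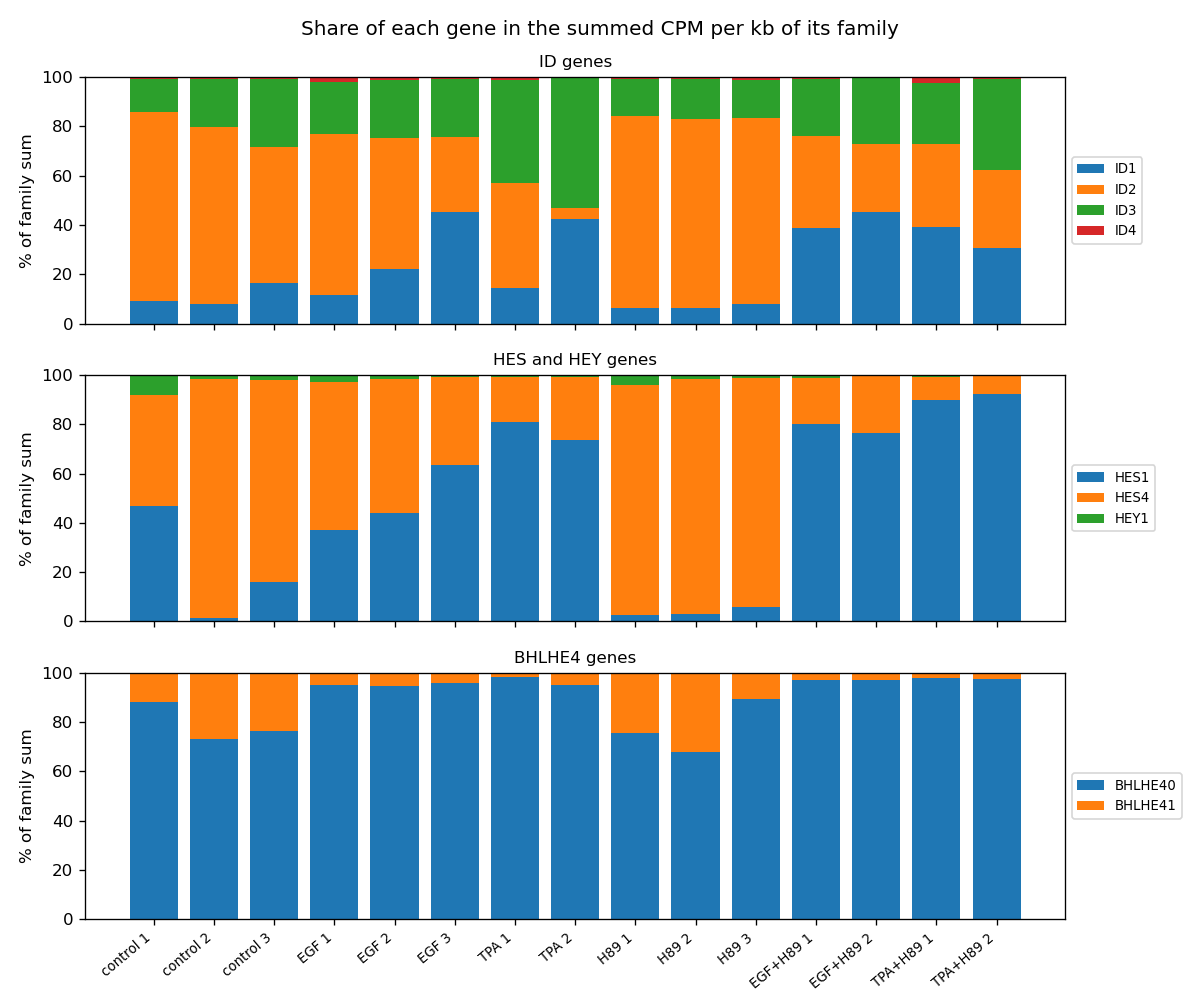
Share (percent) of each gene in the summed CPM per kb of its family, 1 stacked bar per library, for the ID genes (top), the HES and HEY genes (middle) and BHLHE40 and BHLHE41 (bottom). ID2 is the largest part of the ID bar in all controls and H89 libraries and 4.32% of it in TPA 2. HES1 takes over 70% of the HES and HEY bar in every TPA, EGF+H89 and TPA+H89 library.

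Across the 15 libraries some members varied together more than others. Pearson's r of log2 CPM between HES1 and BHLHE40 was 0.97, and 0.99 after each library set was centred on its mean. It was 0.94 between ID1 and ID3 and 0.91 between HES1 and ID1. It was lower for the pairs HES1 and HES4 (0.41), HES1 and BHLHE41 (0.48), BHLHE40 and BHLHE41 (0.58) and ID2 and ID4 (0.53). The libraries share groups, depth and library set, so these values describe the table and carry no p. Among 13458 genes with a mean of at least 1 CPM, the patterns most like that of HES1 were those of SMAD7, an inhibitory SMAD (r = 0.98), BHLHE40 (0.97), the zinc finger factor EGR2 (0.96) and the homeobox repressor TGIF1 (0.95). For BHLHE40 they were KLF10 (0.98), EGR2 (0.98), SMAD7 (0.97) and HES1 (0.97). For ID3 they were IER3 (0.96), the mRNA-decay factor ZFP36 (0.95), the AP-1 subunit JUNB (0.95) and the uridine phosphorylase UPP1 (0.94), and for ID4 the cytokine IL11 (0.93), IER3 (0.93), SERTAD1 (0.93) and NANOS1 (0.92).

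Genes of the pathways around the members passed the test in no comparison when groups alone were fitted. Of the Notch ligands, receptors and processing enzymes 17 of 18 were tested. The lowest p after EGF belonged to LFNG, a glycosyltransferase that modifies Notch, at 1.47 ± 0.57 on the log2 scale (adjusted p = 1.00), and after TPA to the receptor NOTCH3 at 1.05 ± 0.50 (adjusted p = 0.386). NOTCH3 stood at 41.4, 37.5 and 40.9 CPM in controls, 35.1 in TPA 1 and 131 in TPA 2, so its estimate rested on TPA 2. The median of this list after TPA was 0.13. Of the Notch nuclear complex and other Notch targets 11 of 13 were tested, with a median of 0.14 after TPA. The 5 TLE corepressors, partners of HES proteins, had a median of 0.25 after TPA and -0.31 after EGF. Over all genes the medians were -0.02 after TPA and 0.02 after EGF.

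Of 17 BMP ligands, receptors and antagonists, 17 were tested. After TPA the lowest p belonged to the antagonists FST at 0.96 ± 0.26 (adjusted p = 0.204) and GREM1 at 1.68 ± 0.53 (adjusted p = 0.242). With the library set as a term, GREM1 rose by 2.05 ± 0.44 (adjusted p = 0.0302) and the ligand BMP4 fell, at -1.32 ± 0.29 (adjusted p = 0.0343), 1 of 17 in each direction. GREM1 stood at 248, 134 and 113 CPM in controls and 472 and 584 after TPA. With H89 alone GREM1 stood at 125, 116 and 434. BMP4 stood at 30.1, 98.4 and 95.5 CPM in controls, so control 1 lay below both TPA libraries at 40.5 and 40.4. With H89 alone BMP4 stood at 91.3, 97.6 and 50.3. H89 3, without a mitogen, thus lay toward the TPA levels for both genes, and why was not tested. Of the SMADs and other BMP targets 12 of 13 were tested. SMAD7 had 1.67 ± 0.36 after TPA (adjusted p = 0.0858) with groups alone. It rose with the library set as a term, by 1.69 ± 0.34 after TPA, by 1.99 ± 0.31 in EGF+H89 against H89 and by 2.09 ± 0.31 in TPA+H89 against H89. MSX1, a homeobox target of BMP, rose after TPA in that fit by 1.73 ± 0.41. In CPM, SMAD7 stood at 37.9, 20.5 and 23.2 in controls, 36.9, 44.4 and 81.1 after EGF, 73.5 and 99.4 after TPA, and 87.8, 102, 87.3 and 119 in the libraries with mitogen and H89.

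Of the E proteins and other bHLH partners of ID, 11 of 14 were tested, with medians of -0.03 after EGF and -0.11 after TPA. After TPA the lowest p belonged to TWIST2, at 1.90 ± 0.57 (adjusted p = 0.223), and TWIST1, at 1.01 ± 0.39 (adjusted p = 0.316). TWIST2 stood at 194, 152 and 160 CPM in controls, 139 in TPA 1 and 1123 in TPA 2. TWIST1 stood at 93.3, 84.6 and 65.0 CPM in controls, 76.8 in TPA 1 and 250 in TPA 2. Neither gene lay above all controls in TPA 1, so both estimates rested on TPA 2. TCF21, a bHLH factor of mesenchyme, rose in TPA against EGF by 2.97 on the log2 scale with the library set as a term, the 1 call in this list. In CPM it stood at 22.8, 0.960 and 1.29 in controls, 10.9, 0.280 and 0.897 after EGF, and 1.52 and 8.94 after TPA. Control 1 and EGF 1 thus lay above both TPA libraries. All 14 clock genes were tested, with a median of 0.27 after TPA. The period gene PER1, which CREB and E-boxes control, had 2.47 ± 0.58 after TPA (adjusted p = 0.118) and 1.30 ± 0.53 after EGF (adjusted p = 1.00). Its levels were 13.5, 6.36 and 9.76 CPM in controls, 10.995, 32.4 and 29.5 after EGF, 22.1 and 87.5 after TPA, and 8.93 and 22.2 in TPA+H89. For PER1, H89 alone gave 8.34, 8.33 and 6.26 CPM and EGF+H89 gave 25.8 and 24.2. CRY1, a clock repressor, had 1.19 ± 0.38 after TPA (adjusted p = 0.250).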

How the data were processed

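Ribosomal RNA was removed before strand-specific libraries were made, per the labels' protocols, which name 3 platforms without tying them to samples. The values are raw read counts per gene symbol, deposited by the authors. HOMER is named in the submitters' processing notes, as are hg19 and GRCh37. Aligner, annotation version and counting strand: not given in the sources used here. Control replicates 3 and 4 were equal at 100% of 19340 counted genes (other pairs at 0.252% to 3.77%) and were used once, which left 15 libraries.

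The 9 genes, the pathway and marker lists and the comparisons were chosen with earlier results of these data known. Named beside the 9 were the list genes of lowest p (up to 4 called or 2 uncalled per list and comparison) and, for each member called with groups alone, the 4 genes of highest correlation.

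Counts were filtered by filterByExpr (smallest count 10, 18575 genes kept), scaled by TMM and fitted in R 4.3.3 with edgeR 4.0.16 (glmQLFit, glmQLFTest), all groups in 1 model, with Benjamini-Hochberg adjustment over all genes at 0.05. SE came from the test. For within-set differences the prior count of log2 CPM was 2. Transcript lengths came from GENCODE and serve levels per kilobase only. The script was tested on simulated data. Alternatives were DESeq2 1.42.0, its size factors, other filters, fewer groups or libraries, and a term for the library set, whose sets were read from the counts.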

Additional observations from a re-analysis of the deposited data

How the results depend on the processing

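Counts of members called depended on the processing, and each alternative whose count was not within 1.5 times that of the fit with groups alone is given here. In place of 0 for EGF against control, DESeq2 called 2, the library set term 1, leaving out control 1, EGF 1 and TPA 2 together 1, and the library set term with set A or TPA 2 left out 2 or 3. In place of 4 for TPA against control, the compared groups alone gave 0, and leaving out those 3 libraries 1. In place of 0 for EGF+H89 against H89, DESeq2 and leaving out the 3 libraries each gave 3, no filter 2, the stricter filter 1, both control copies 1, the compared groups alone 4, the library set term 4, and that term with set A or TPA 2 left out 3 or 4. In place of 2 for TPA+H89 against H89, the values were DESeq2 5, library set term 4, without the 3 libraries 4, and the term without TPA 2 5. In place of 0 for TPA against EGF, DESeq2 and the library set term each gave 1. In place of 2 for the F-test over 6 groups, DESeq2 and the library set term each gave 5, both control copies 4, and the term with set A or TPA 2 left out 4 or 5. Leaving out each library in turn gave 0 to 1 for EGF and 0 to 2 for each of EGF+H89 and TPA+H89 against H89. The lowest was 0 for TPA against control, TPA against EGF and the F-test. Without TPA 1 the TPA group was TPA 2 alone, so counts from that fit are not given for these. All other comparisons stayed at 0 under these alternatives. Of 18575 genes, DESeq2 called 56 higher for EGF against control and 165 for TPA against EGF. It called 50 higher for EGF+H89 against H89 and 76 for TPA+H89 against H89. Its test over the 6 groups called 419. With the compared groups alone, 49 of 15631 genes were called higher for EGF+H89 against H89. The settings with set A or TPA 2 left out under the term were chosen after seeing the data. The causes were not tested, except that leaving out libraries or groups leaves fewer degrees of freedom. Over 2475 member values under alternatives, called or not, no change of sign involved a value called in either fit. The sign did change in 118 values that were uncalled in both fits, from 38 pairs of member and comparison. The labels give running sample numbers and no replicate number shared between groups, so libraries were blocked by library set alone. That block does not separate the later sample numbers, which hold every TPA and TPA+H89 library, from the earlier ones. Depth limits HEY1 and ID4, and HES1 in controls.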
